A study of Homo sapiens with 12 samples.

Results

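Aldo-keto reductases and aldehyde dehydrogenases are the enzymes described here, in A549 cells depleted of FAM60A or of SDS3. The members were 10 genes chosen by name: AKR1A1, AKR1B1, AKR1B10, AKR1C1, AKR1C2, AKR1C3, ALDH1A1, ALDH1A3, ALDH3A1 and ALDH3A2. They and the gene lists used below were chosen with earlier results of these data known. Their counts beside the shares over all genes or probe sets are therefore descriptions. All probe sets that the platform annotation assigns to them were taken, 17 probe sets of a single member gene and 1 shared by AKR1C2 and AKR1C1, of 54675 on the array. These 17 cover 8 of the 10 genes, and all 18 passed the filter on dim probe sets (at least 3 of 12 arrays at a log2 signal of 5 or more). AKR1A1 and AKR1B1 have no signal here, because the annotation used here gives no probe set under either name. Only the sequences before their start sites are counted below.

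A549 is an established human lung adenocarcinoma line. Cells were transfected with an siRNA at 50 nM and lysed 3 days later, and 1 ug of total RNA per sample was labelled with biotin for a 1-colour Affymetrix array. In one experiment 3 samples with FAM60A siRNA were set against 3 with non-targeting siRNA, and in the other 3 samples with SDS3 siRNA were set against 3 non-targeting controls of their own, so no array served both. FAM60A (now SINHCAF) and SDS3 (now SUDS3) are subunits of the SIN3-HDAC co-repressor complex, which brings histone deacetylases to chromatin. All groups are transient transfections of 1 line, with no untransfected cells. The treatment protocol names the FAM60A and non-targeting siRNAs only. Wells were plated in triplicate, and no label says that the replicates are independent cultures, so the p-values cover the spread among samples alone, technical or not.

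Aldo-keto reductases use NADPH to reduce aldehydes and ketones to alcohols, and aldehyde dehydrogenases oxidise aldehydes to acids. A549 cells lack working KEAP1, the protein that marks the transcription factor NRF2 for destruction, and are known for high levels of AKR1B10 and the AKR1C enzymes, which NRF2 induces through antioxidant response elements. They are also known for high ALDH1A1 and ALDH3A1, and ALDH1A1 and ALDH1A3 make retinoic acid from retinaldehyde.

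Both siRNAs lowered their targets. SINHCAF stood at 15.5% of its control level in the FAM60A knockdown (limma adjusted p = 9.02e-08) and SUDS3 at 33.4% in the SDS3 knockdown (limma adjusted p = 7.33e-06). With SDS3 siRNA, SINHCAF rose to 127.5% by its brightest probe set (limma adjusted p = 0.00598), while its other probe set did not pass (limma adjusted p = 0.787). SUDS3 did not pass with FAM60A siRNA (limma adjusted p = 0.743 and 0.226). The array medians were 186 to 192.6 (linear signal) in the FAM60A experiment and 96.82 to 98.32 with SDS3. Levels are therefore compared only among arrays of one experiment. The epithelial markers KRT7, KRT8, KRT18, KRT19, EPCAM and CDH1 were all above the filter level in every group. In the SDS3 knockdown 5 of these 6 fell and KRT7 rose, and in the FAM60A knockdown 2 rose and 2 fell. Of 8 tested markers of other cell types, 1 fell in each knockdown (ALB with FAM60A, CD14 with SDS3), and the leukocyte marker PTPRC lay below the filter level. Over all genes, each by its brightest probe set, 17.4% rose and 15.2% fell with FAM60A, and 13.5% rose and 16.6% fell with SDS3.

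AKR1C1, AKR1C2 and AKR1C3 are neighbours on chromosome 10, and their sequences are given because these genes fell together in the SDS3 knockdown. The lines hold the 250 bases before each RefSeq start site (GRCh38.p14), 5′ to 3′ on the gene's own strand. Capitals mark a 12-base block found in all of them. The windows lie at chr10:4963165-4963414 (plus strand) for AKR1C1, at chr10:5003858-5004107 (minus strand) for AKR1C2 and at chr10:5048531-5048780 (plus strand) for the first start of AKR1C3. ALDH1A3, the member that rose in the FAM60A knockdown, is shown beside them, at chr15:100879581-100879830 (plus strand), with no part marked.
AKR1C1: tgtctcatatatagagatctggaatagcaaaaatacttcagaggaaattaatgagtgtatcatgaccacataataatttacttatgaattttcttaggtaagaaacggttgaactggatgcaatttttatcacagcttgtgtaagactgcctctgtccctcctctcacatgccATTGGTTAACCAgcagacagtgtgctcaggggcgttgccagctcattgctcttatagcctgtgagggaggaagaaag
AKR1C2: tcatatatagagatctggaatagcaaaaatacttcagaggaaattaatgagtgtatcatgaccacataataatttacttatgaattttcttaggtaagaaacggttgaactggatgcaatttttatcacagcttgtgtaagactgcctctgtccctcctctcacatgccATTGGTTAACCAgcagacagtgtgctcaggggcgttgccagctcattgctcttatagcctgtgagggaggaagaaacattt
AKR1C3: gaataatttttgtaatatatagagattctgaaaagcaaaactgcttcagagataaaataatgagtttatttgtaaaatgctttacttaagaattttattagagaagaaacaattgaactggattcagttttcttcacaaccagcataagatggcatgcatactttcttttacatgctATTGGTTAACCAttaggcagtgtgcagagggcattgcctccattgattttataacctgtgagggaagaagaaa
ALDH1A3: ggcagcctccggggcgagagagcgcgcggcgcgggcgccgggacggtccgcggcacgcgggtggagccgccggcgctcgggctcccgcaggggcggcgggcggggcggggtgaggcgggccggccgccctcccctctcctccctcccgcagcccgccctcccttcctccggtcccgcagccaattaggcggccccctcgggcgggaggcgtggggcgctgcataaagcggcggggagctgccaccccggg

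The block, ATTGGTTAACCA, began 77, 81 and 73 bases before the starts of AKR1C1, AKR1C2 and AKR1C3, and 86 bases before a further start of AKR1C3 at chr10:5094164-5094413. Searched on both strands, it was found in 5 of 35116 windows of the same length (0.014%), those 4 and that of PPFIA2. The block was defined as the longest stretch common to those 4, so their matches were fixed in advance. It contains ATTGG, the inverted CCAAT box, which 32.0% of all windows hold and 8 of the 11 windows of member genes hold. The 4 AKR1C windows are among these 8, because ATTGG is part of the block common to them. AKR1C1 and AKR1C2 were identical at 245 of 246 aligned bases (99.6%), and each shared 78.3 to 79.8% with the AKR1C3 windows. TGACNNNGC, the core of the antioxidant response element, was in 0 of the 11 windows, against 10.9% of all windows. GCGTG, the core of the xenobiotic response element, was in 4 of 11 against 32.2%, and CACGTG, an E-box, in 2 of 11 against 6.3%. The ALDH1A3 window had 82.4% G and C, against 32.0 to 40.8% in the AKR1C windows and a median of 58.0% over all windows. These matches are descriptions of 1 window per start, and the block and motifs were picked after the sequences had been read. The 11 windows belong to 8 member genes, which are not the same 8 as those with probe sets. AKR1A1 and AKR1B1 are among them, while AKR1B10 and ALDH3A1 had no window and are named only. AKR1A1 was 1 of the 2 windows with CACGTG, and both AKR1B1 windows were among the 4 with GCGTG.

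In the SDS3 knockdown 14 of the 17 probe sets fell, 0 rose and 3 did not pass (limma, adjusted p under 0.05 over 48347 probe sets). Over all tested probe sets 24.2% were called, 13.2% as lower and 11.0% as higher. The median log2 change of the 17 was -0.48, against 0.0082 over all probe sets. Taking the brightest probe set of each gene, 6 of 8 genes fell: AKR1B10, AKR1C1, AKR1C2, AKR1C3, ALDH3A1 and ALDH3A2. Over all genes taken the same way, 16.6% fell and 13.5% rose. The knockdown arrays lay apart from the controls for 16 of 17 probe sets, 14 below and 2 above. Over all probe sets 39.4% showed no overlap, 20.4% with the knockdown below and 19.0% with it above. The falls of these lead probe sets passed in every setting that held them and had no minimum change. The setting without probe sets of shared sequence (_s_at, _x_at) did not hold the leads of AKR1B10, AKR1C1, AKR1C2 and ALDH3A2. With a 1.5-fold minimum the falls of AKR1C3 and ALDH3A1 remained. Those of AKR1B10 (1.46-fold), AKR1C1 (1.34-fold), AKR1C2 (1.30-fold) and ALDH3A2 (1.38-fold) did not reach it. Several probe sets share sequence, the brightest of AKR1C1 and AKR1C2 among them. Neither the 14 probe sets nor the 6 genes are therefore independent counts.

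In the FAM60A knockdown 1 of the 17 rose, 5 fell and 11 did not pass, against a background of 26.8% called, 14.7% higher and 12.1% lower. The knockdown and control arrays did not overlap for 10 of 17, where the share over all probe sets was 41.0%. The median log2 change was -0.081, against -0.020 over all probe sets. The rise of ALDH1A3 (1.41-fold) was the one call that held in every setting run without a minimum change, and with a 1.5-fold minimum 0 of the 17 were called. Without FAM60A control replicate 1, or without FAM60A knockdown replicate 1, 3 of the 17 passed in place of 6.

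**Figure D1:**
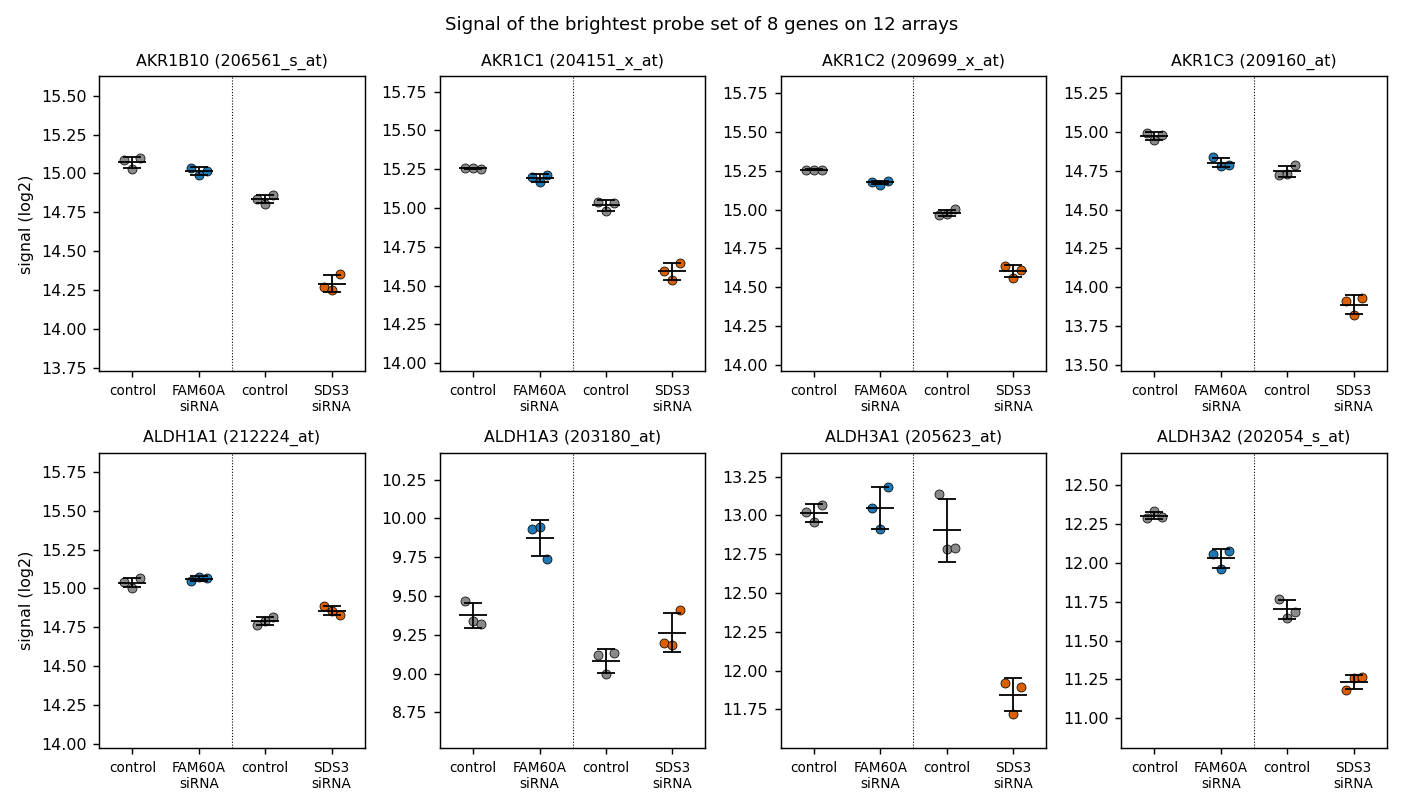
Log2 signal of the brightest probe set of each of the 8 genes on all 12 arrays, with the FAM60A experiment left of the dotted line and the SDS3 experiment right of it. Points are arrays, bars are means with SD (n = 3), and every panel spans the same log2 range. SDS3 knockdown arrays lie below their controls for all genes except ALDH1A1 and ALDH1A3, and ALDH1A3 alone stands higher in the FAM60A knockdown without overlap.

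Among the reductases, AKR1C3 changed most. It is a ketosteroid reductase that makes androgens and prostaglandin F isomers. Its log2 signal (209160_at) was 14.72, 14.73 and 14.79 in the SDS3 controls and 13.91, 13.82 and 13.93 in the knockdown. All knockdown arrays lay well below the controls. The log2 change was -0.86 (SE 0.0586, n = 3 per group, limma adjusted p = 2.66e-05), which left 55.2% of the control signal. In the FAM60A experiment it was 15.00, 14.95 and 14.98 in controls and 14.84, 14.78 and 14.79 in the knockdown, again without overlap. That log2 change of -0.17 passed narrowly (adjusted p = 0.0467) and lost the call in 12 alternative settings, among them without any 1 of the 6 arrays (adjusted p 0.0585 to 0.134).

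AKR1B10 reduces retinaldehyde and lipid-derived aldehydes. The log2 signal of its probe set (206561_s_at) was 14.84, 14.81 and 14.86 in the SDS3 controls and 14.27, 14.25 and 14.35 in the knockdown, with no overlap. This is the only AKR1B10 probe set, and with its _s_at ending it can bind transcripts of several similar genes. The log2 change of -0.54 (SE 0.0573, adjusted p = 0.000238) left 68.6% of the control signal. In the FAM60A experiment the arrays overlapped, at 15.09, 15.03 and 15.10 in controls and 15.04, 14.99 and 15.01 in the knockdown (log2 change -0.058, 95% interval -0.185 to 0.069, adjusted p = 0.511).

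AKR1C1 inactivates progesterone and AKR1C2 inactivates dihydrotestosterone. Their coding sequences are nearly alike, and probe sets ending in _s_at or _x_at can bind transcripts of several such genes. In those probe sets the signals of the pair cannot be told apart. Whether the probe sets without these endings bind a single gene was not tested. The brightest AKR1C1 probe set (204151_x_at) had log2 signals of 15.04, 14.98 and 15.03 in the SDS3 controls and 14.60, 14.54 and 14.64 in the knockdown. The brightest for AKR1C2 (209699_x_at) had 14.96, 14.97 and 15.00 in controls and 14.63, 14.56 and 14.61 in the knockdown. For both genes the knockdown lay below all controls, with log2 changes of -0.43 (SE 0.0577, adjusted p = 0.000912) and -0.38 (SE 0.0548, adjusted p = 0.00131). In the FAM60A knockdown the same probe sets changed by -0.061 (adjusted p = 0.478) and -0.081 (adjusted p = 0.324) and did not pass.

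The SDS3 fall is given by class of probe set, with no test between classes. The 4 AKR1C probe sets ending in _x_at had log2 changes between -0.48 and -0.38, and the 1 ending in _s_at had -0.42. The 5 without either ending had changes between -0.86 and -0.59, a range that does not meet the others. These were AKR1C3 (209160_at), AKR1C1 (1555855_at, -0.59, and 217626_at, -0.60), AKR1C2 (244266_at, -0.68) and the probe set annotated to both AKR1C2 and AKR1C1 (1555854_at, -0.74). Of these, 1555855_at is dim, with SDS3 log2 means of 6.18 in controls and 5.58 in the knockdown, near the filter level of 5. On the control arrays the _x_at probe sets and AKR1C3 had log2 signals between 14.30 and 15.26, near the highest signal of an array, which was 15.13 to 15.43. AKR1B10 (206561_s_at) lay there too, at 14.81 to 15.10 on the control arrays. The part of flattening near that limit in the changes and percentages of these probe sets, in both experiments, was not tested.

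The shared AKR1C2 and AKR1C1 probe set (1555854_at) had log2 signals of 11.36, 11.26 and 11.40 in the SDS3 controls and 10.65, 10.53 and 10.61 in the knockdown (adjusted p = 8.32e-05). In the FAM60A experiment the groups overlapped, at 12.40, 12.07 and 12.47 in controls and 12.43, 12.34 and 12.48 in the knockdown (log2 change 0.10, adjusted p = 0.519). AKR1C2 244266_at was the one probe set of this pair that passed there. Its log2 signal was 8.94, 8.85 and 8.78 in controls and 8.44, 8.69 and 8.56 in the knockdown (log2 change -0.29, SE 0.0767, adjusted p = 0.0175). Those groups did not overlap, but the call was lost without control replicate 1 (adjusted p = 0.0716) or knockdown replicate 1 (adjusted p = 0.0592). AKR1C1 1555856_s_at passed in the SDS3 knockdown (log2 change -0.42, adjusted p = 0.0389) and lost the call in 7 settings, among them without any 1 of 5 arrays, all but knockdown replicate 3 (adjusted p 0.0559 to 0.108).

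**Figure D2:**
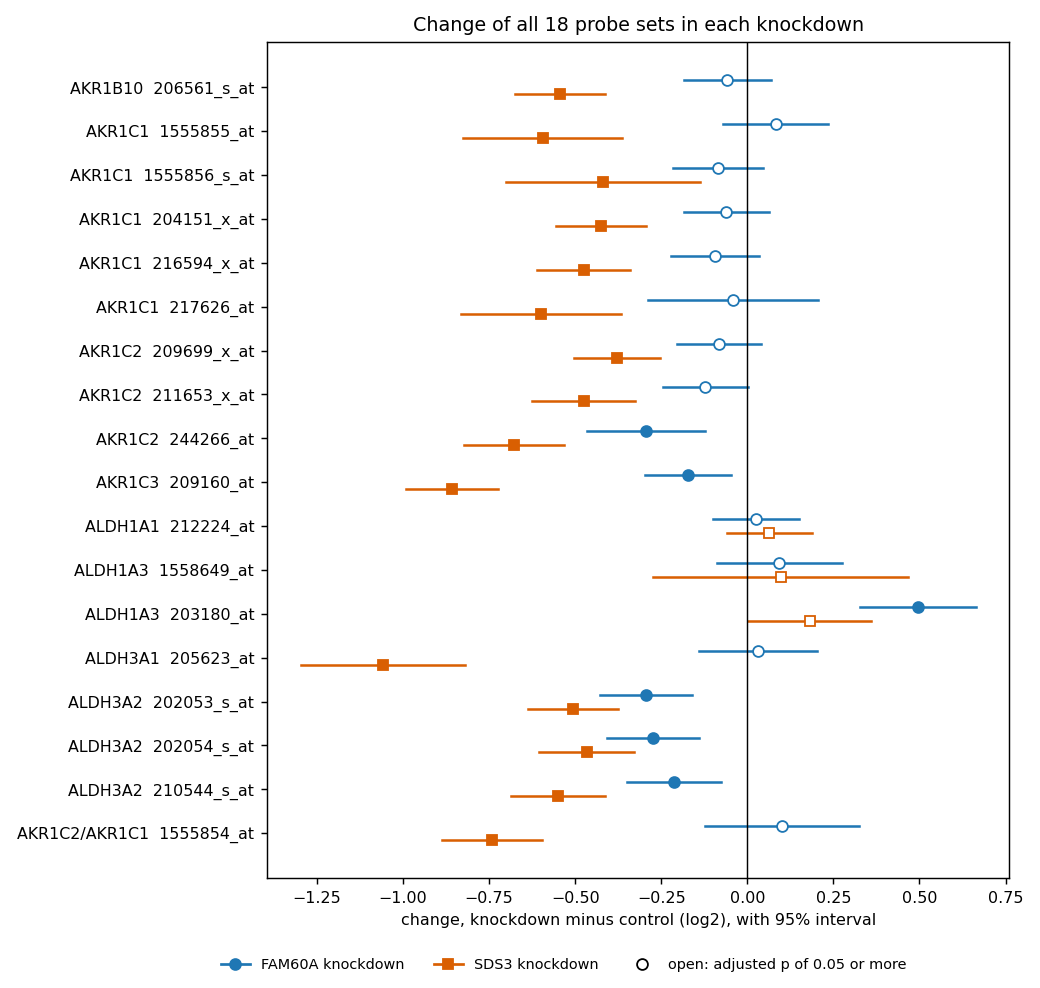
Log2 change of each of the 18 probe sets (knockdown minus its own controls) with its 95% interval, circles for the FAM60A knockdown and squares for the SDS3 knockdown; filled symbols passed limma at an adjusted p under 0.05. The SDS3 values of all AKR1C, AKR1B10, ALDH3A1 and ALDH3A2 probe sets lie below 0, and ALDH1A3 203180_at is the filled symbol to the right of 0.

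Among the dehydrogenases, ALDH3A1 fell most in the SDS3 knockdown. It oxidises aromatic and medium-chain aldehydes. Its log2 signal (205623_at) was 13.14, 12.79 and 12.79 in the SDS3 controls and 11.92, 11.72 and 11.89 in the knockdown, so all knockdown arrays lay below the lowest control. The log2 change of -1.06 (SE 0.105, adjusted p = 0.000172) left 48.0% of the control signal, and it was the one member change past 2-fold. In the FAM60A experiment the groups overlapped, at 13.02, 12.96 and 13.07 in controls and 13.05, 12.91 and 13.18 in the knockdown. The log2 change there was 0.031 (95% interval -0.139 to 0.202, adjusted p = 0.811).

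ALDH3A2, the fatty aldehyde dehydrogenase whose loss causes Sjögren-Larsson syndrome, fell in both knockdowns. Its brightest probe set (202054_s_at) had log2 signals of 11.77, 11.65 and 11.69 in the SDS3 controls and 11.18, 11.26 and 11.26 in the knockdown (log2 change -0.47, SE 0.0601, adjusted p = 0.000679). In the FAM60A experiment it had 12.29, 12.33 and 12.30 in controls and 12.06, 11.96 and 12.08 in the knockdown (log2 change -0.27, SE 0.0596, adjusted p = 0.00659). Neither pair of groups overlapped, and the other probe sets of the gene fell too, by -0.51 and -0.55 with SDS3 and by -0.29 and -0.21 with FAM60A. All ALDH3A2 probe sets end in _s_at and can bind transcripts of several similar genes, so their falls are not independent counts. Scaled to the hybridization controls, the 3 FAM60A falls did not pass (adjusted p 0.105 to 0.380), and scaled to the spike-ins those of 202054_s_at (adjusted p = 0.0555) and 210544_s_at (adjusted p = 0.135) did not. The smallest of them, that of 210544_s_at, also lost the call without FAM60A control replicate 1 or 3 or knockdown replicate 1 or 2 (adjusted p 0.0616 to 0.0982).

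ALDH1A3 rose in the FAM60A knockdown. Its log2 signal (203180_at) was 9.47, 9.34 and 9.32 in controls and 9.93, 9.95 and 9.74 in the knockdown, with every knockdown array above the highest control. The log2 change of 0.50 (SE 0.0750, adjusted p = 0.000788), or 1.41-fold, lay between 0.29 and 0.56 over the settings without a minimum change, with adjusted p at most 0.0401. In the SDS3 experiment the signal was 9.12, 9.0 and 9.13 in controls and 9.20, 9.19 and 9.41 in the knockdown. These groups did not overlap either, but the log2 change of 0.18 did not pass (adjusted p = 0.138). The other probe set of the gene (1558649_at) is dim, with log2 signals between 4.88 and 6.95. It did not pass in either knockdown (log2 changes 0.093 with FAM60A and 0.097 with SDS3).

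ALDH1A1 passed in neither knockdown. Its log2 signal (212224_at) was 15.04, 15.00 and 15.07 in the FAM60A controls and 15.05, 15.08 and 15.07 in the knockdown. In the SDS3 experiment it was 14.77, 14.79 and 14.82 in controls and 14.88, 14.85 and 14.83 in the knockdown. The SDS3 knockdown arrays stood just above their controls and the FAM60A groups overlapped. The log2 changes were 0.025 with FAM60A (95% interval -0.100 to 0.150) and 0.064 with SDS3 (95% interval -0.060 to 0.187). These signals lie near the top of the arrays' range.

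The SDS3 change was then set against the FAM60A change in a fit of all 12 arrays. It was lower for 11 of the 17 probe sets and higher for 0 (limma, adjusted p under 0.05), where 16.9% of all probe sets differed, 10.6% lower and 6.28% higher. Each knockdown was its own experiment, so knockdown and experiment cannot be told apart in these or any later differences. By the brightest probe set, 5 of 8 genes were lower with SDS3, against 13.5% of all genes called lower. AKR1C1 and AKR1C2 are among these 5 and are not independent counts. The differences (log2) were -1.09 for ALDH3A1 (adjusted p = 0.000102), -0.69 for AKR1C3 (adjusted p = 3.44e-05) and -0.49 for AKR1B10 (adjusted p = 0.000516). AKR1C1 (204151_x_at) had -0.36 (adjusted p = 0.00353) and AKR1C2 (209699_x_at) -0.30 (adjusted p = 0.00973), whose call was lost when arrays were scaled to the spike-ins (adjusted p = 0.0922). In the FAM60A controls these last 2 probe sets stood at 15.25 to 15.26, where the highest signal of an array was 15.34 to 15.43, and the part of flattening in the differences of AKR1C1, AKR1C2, AKR1C3 and AKR1B10 was not tested. The difference for ALDH3A2 was -0.19 (95% interval -0.365 to -0.020, adjusted p = 0.124), and of its other probe sets 210544_s_at passed (-0.34, adjusted p = 0.0114). ALDH1A3 had -0.31 (adjusted p = 0.0720), which passed in 6 settings, among them a fit of 1 probe set per gene (adjusted p = 0.0460). For ALDH1A1 the difference was 0.039 (95% interval -0.114 to 0.191). The AKR1C1 probe set 217626_at (-0.56, adjusted p = 0.0318) lost the call without any 1 of 6 arrays, FAM60A control replicate 1 or 3, FAM60A knockdown replicate 1, SDS3 control replicate 1 or SDS3 knockdown replicate 2 or 3 (adjusted p 0.0555 to 0.073), and AKR1C2 244266_at (-0.38, adjusted p = 0.0186) without FAM60A control replicate 3 (adjusted p = 0.0502).

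Control probe sets moved alongside. In the SDS3 knockdown the poly-A spike-in probe sets, which are made to read bacterial RNA added to a sample, stood 0.32 (log2) above the controls (exact permutation test, two-sided p = 0.1, which is the minimum for 3 against 3 arrays). Those for 18S ribosomal RNA stood 0.53 higher (exact p = 0.1). With FAM60A these differences were 0.10 (exact p = 0.5) and 0.28 (exact p = 0.1). Scaling to the spike-ins shifts every SDS3 change by -0.32, which makes the falls larger and gives ALDH1A1 -0.26 and ALDH1A3 -0.14, neither of which passed. That shift also exceeds the SDS3 rises of KRT7 and CYP26A1. Scaling to the hybridization controls shifts them by -0.078. The difference between 3′ and 5′ probe sets of ACTB changed by -0.013 (exact p = 0.7) with SDS3 and by -0.094 (exact p = 0.1) with FAM60A. The part of these shifts in the results was not tested, and in bulk RNA fewer expressing cells and less RNA per cell cannot be told apart.

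Other enzymes of both families moved in both directions. AKR1C4, the liver-type member of the AKR1C cluster, fell in both knockdowns (log2 changes -0.50 with FAM60A, adjusted p = 0.00135, and -0.80 with SDS3, adjusted p = 0.000494). Its probe set is dim, with SDS3 log2 means of 5.86 in controls and 5.06 in the knockdown, near the filter level of 5. Of the 7 other aldo-keto reductase genes tested, 1 rose (KCNAB2) and 1 fell with FAM60A, and 2 fell with SDS3, the second being AKR7A2 (-0.29). Of 14 other aldehyde dehydrogenases, 5 rose and 1 fell with FAM60A, and 2 rose and 3 fell with SDS3. Over all genes 17.4% rose and 15.2% fell with FAM60A, and 13.5% rose and 16.6% fell with SDS3. ALDH9A1, which acts on aminoaldehydes, and ALDH1B1, a mitochondrial enzyme, rose in both. ALDH9A1 rose by 0.33 with FAM60A and 0.94 with SDS3, and ALDH1B1 by 0.34 with FAM60A and 0.52 with SDS3. ALDH3B1, which oxidises lipid aldehydes, rose by 0.41 with FAM60A and fell by 0.51 with SDS3 (log2 difference -0.92, adjusted p = 1.07e-05). ALDH5A1, the succinic semialdehyde dehydrogenase, rose by 0.61 with FAM60A and fell by 0.25 with SDS3 (difference -0.85, adjusted p = 1.35e-05). ALDH2, the mitochondrial acetaldehyde enzyme, rose by 0.40 with FAM60A.

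Of 19 further carbonyl and alcohol reductases and dehydrogenases, 1 rose and 2 fell with FAM60A, and 1 rose and 4 fell with SDS3. The shares over all genes were 17.4% rising and 15.2% falling with FAM60A, and 13.5% rising and 16.6% falling with SDS3. PTGR1, which reduces the double bond of alkenals, fell by 0.71 in the SDS3 knockdown (adjusted p = 5.12e-05), and the carbonyl reductase CBR1 fell by 0.31. In the retinoid list 6 of 17 genes rose and 1 fell with FAM60A. They include the retinol uptake receptor STRA6 (log2 change 0.65), the retinoic acid hydroxylase CYP26A1 (0.65), the retinol carrier RBP4 (0.54) and the retinaldehyde reductase DHRS3 (0.39). With SDS3, 1 of the 17 rose (CYP26A1, 0.32) and 5 fell, among them the carotenoid-cleaving enzyme BCO1 (-0.69) and the receptor RARB (-0.32). RBP4 fell with SDS3 (-0.47), and its changes differed between the knockdowns (log2 difference -1.01, adjusted p = 5.59e-05). The retinoid list's median log2 change was 0.053 with FAM60A and -0.090 with SDS3. In the list of polyol and glyoxal handling, 3 of 5 genes rose with FAM60A and GLO1, glyoxalase 1, fell by 0.43, and with SDS3 1 rose.

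Other known NRF2 targets fell in the SDS3 knockdown. Of 22 tested, 15 fell and 1 rose, with a median log2 change of -0.36, where 16.6% of all genes fell and 13.5% rose. The glutathione peroxidase GPX2 had -1.41, the cystine transporter SLC7A11 -1.01, the epoxide hydrolase EPHX1 -0.91 and the sulfiredoxin SRXN1 -0.88. In the FAM60A knockdown 8 of the 22 fell and 3 rose, with a median of -0.11, where 15.2% of all genes fell and 17.4% rose. There GCLC, a subunit of the enzyme that starts glutathione synthesis, had -0.71 and OSGIN1 -0.70, while the heme oxygenase HMOX1 rose by 0.93 and the transporter ABCC3 by 0.63. HMOX1 rose with SDS3 as well (0.55). The change differed between knockdowns for 10 of the 22, lower with SDS3 in each, where 13.5% of all genes were called lower. In the list of NRF2 regulators, NFE2L2, which encodes NRF2, fell by 0.40 with SDS3 (adjusted p = 0.00140) and had -0.18 with FAM60A (adjusted p = 0.153). Its repressor KEAP1 fell in both (-0.49 with SDS3 and -0.39 with FAM60A). Of all 9 tested regulators, 4 fell and 1 rose with SDS3 and 4 fell and 0 rose with FAM60A.

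ALDH3A1 is also a known target of the aryl hydrocarbon receptor in some tissues. Of 7 tested genes of that list, 5 fell and 0 rose with SDS3, and 4 fell and 1 rose with FAM60A. Over all genes 16.6% fell and 13.5% rose with SDS3, and 15.2% fell and 17.4% rose with FAM60A. The receptor gene AHR fell in both (-0.99 with SDS3 and -0.80 with FAM60A). The cytochrome P450 genes CYP1B1 (-2.46 with SDS3 and -0.96 with FAM60A) and CYP1A1 (-1.20 with SDS3 and -0.42 with FAM60A) fell in both. Both genes fell more with SDS3 (log2 differences -1.50, adjusted p = 3.20e-05, and -0.78, adjusted p = 0.000705). The receptor's repressor AHRR rose by 0.30 with FAM60A and fell by 0.67 with SDS3.

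**Figure D3:**
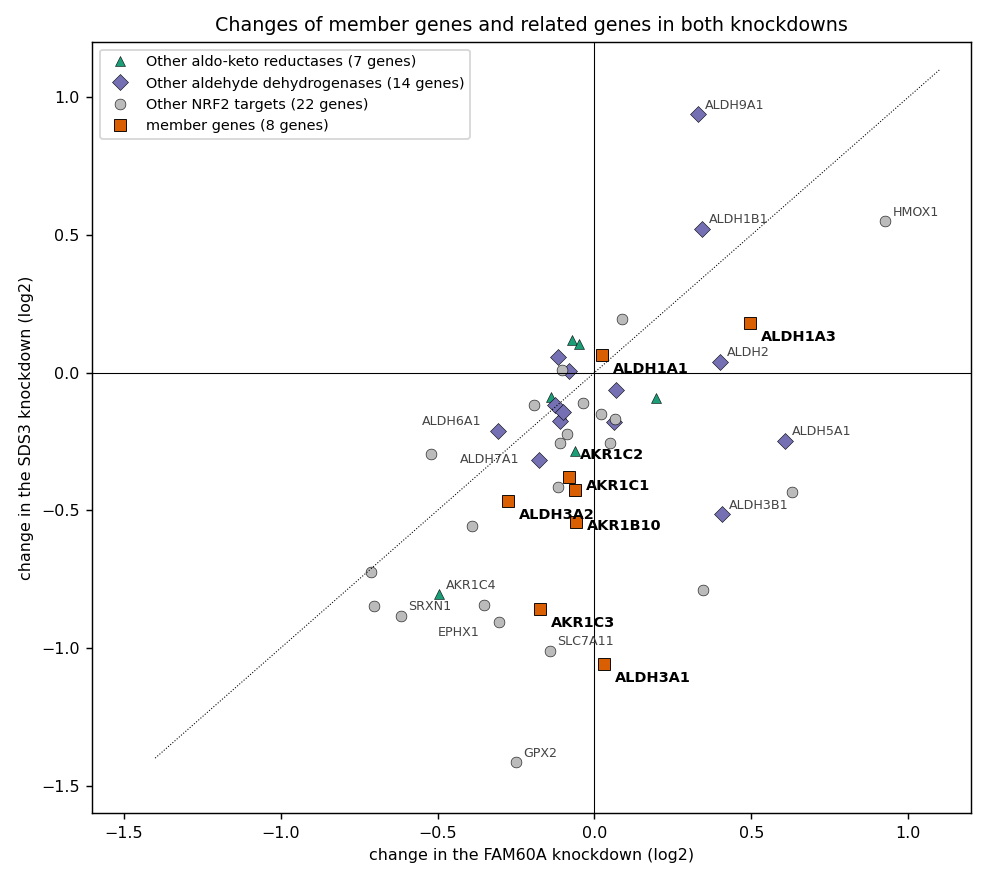
Log2 change in the FAM60A knockdown (horizontal) against that in the SDS3 knockdown (vertical) for the 8 member genes and for genes of related lists, each by its brightest probe set; the dotted line marks equal changes. ALDH3A1 and AKR1C3 lie far below the line, at -1.06 and -0.86 on the vertical axis, and ALDH1A3 lies to the right, at 0.50.

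The genes whose log2 signals followed a member most closely over the 12 arrays, each experiment centred on its mean, were named for the member with the largest passing change in each knockdown. For ALDH3A1 they were HGD (Pearson r = 0.994), RPH3AL (r = 0.988) and GALNT5 (r = 0.986), with SDS3 log2 changes of -0.67, -0.71 and -0.42. For ALDH1A3 they were DENND4C (r = 0.989), EVPL (r = 0.976) and OSBPL1A (r = 0.974), with FAM60A log2 changes of 0.39, 0.42 and 0.22. The points share the treatment groups, so these correlations are descriptions.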

How the data were processed

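The deposited table gives a linear intensity for each probe set and array. The authors obtained it with RMA, per the submitters' processing notes, which state no version and not whether both experiments were treated together. RMA brings the arrays it treats together to a common distribution, so a shift shared by most transcripts is removed, and bright and dim changes narrow.

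Log2 of the intensities was tested with limma 3.58.1 in R 4.3.3 (lmFit, eBayes, Benjamini-Hochberg adjustment over 48347 of 54675 probe sets with at least 3 of 12 arrays at log2 5). Each knockdown was fitted with its own controls (6 arrays), and the difference between knockdowns in all 12. Files were read with the data.table package (version 1.17.8), and promoter windows aligned with Biopython 1.88. The script was tested on simulated data. A gene's lead probe set has the highest mean over the 12 arrays. Probe sets were named by the platform annotation (41097 with 1 symbol, 1801 with several, 11777 with none listed), and 41043 symbols were matched to RefSeq by Entrez identifier. The array has no genome build, and the coordinates given are those of RefSeq start sites.

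The members and the 10 gene lists were chosen with earlier results of these data known. Named genes were the members, both targets, the markers and, from each list, those among the 4 largest passing changes per comparison; PPFIA2 was named after the search. Same-numbered arrays did not deviate together (correlations -0.138 to 0.019), so numbers were not taken as pairs. Identical values between replicate arrays came to at most 0.309% of probe sets, so no array was a copy. The alternatives changed the filter, the unit (1 probe set per gene, mean per gene, no shared-sequence probe sets), the scaling, the fit, the arrays and the thresholds. The spike-in scaling was narrowed to the poly-A controls, and the hybridization control scaling added, after the control values were seen.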

Additional observations from a re-analysis of the deposited data

Results flagged for a closer look

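For 12 of the 18 probe sets the change differed between the knockdowns in a test of the difference itself (limma on all 12 arrays, adjusted p under 0.05). All 12 were lower with SDS3, where 16.9% of all probe sets differed, 10.6% of them all as lower. Several of the 12 share sequence, so they are not independent counts. The differences (log2, SDS3 change minus FAM60A change) were -1.09 for ALDH3A1, -0.84 for the probe set shared by AKR1C2 and AKR1C1, -0.69 for AKR1C3 and -0.49 for AKR1B10. The AKR1C1 probe sets had -0.68 (1555855_at, a dim probe set), -0.56 (217626_at), -0.38 (216594_x_at) and -0.36 (204151_x_at). The AKR1C2 probe sets had -0.38 (244266_at), -0.35 (211653_x_at) and -0.30 (209699_x_at). ALDH3A2 210544_s_at had -0.34, while the brighter ALDH3A2 probe sets 202054_s_at and 202053_s_at did not pass. The knockdowns were run as separate experiments with different array medians, so knockdown and experiment cannot be told apart in these differences.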

How the results depend on the processing

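The SDS3 falls of the 6 lead probe sets, and the FAM60A rise of ALDH1A3, kept their direction in every setting that held them. Their calls held in each of these settings without a minimum change. The setting without shared-sequence probe sets did not hold the leads of AKR1B10, AKR1C1, AKR1C2 and ALDH3A2. With FAM60A, eBayes with trend and robust added calls for AKR1C2 209699_x_at (adjusted p = 0.0420) and 211653_x_at (0.00797) and AKR1C1 216594_x_at (0.0381), the mean per gene added AKR1C2 (0.0198), and hybridization control scaling lost AKR1C2 244266_at (0.106). For the difference, spike-in scaling lost AKR1C2 211653_x_at (0.0527) and ALDH3A2 210544_s_at (0.0619), quantile normalization lost AKR1C2 244266_at (0.114) and array weights lost AKR1C1 217626_at (0.0529), while calls were added for AKR1C1 1555856_s_at by hybridization scaling (0.0273) and for ALDH3A2 202053_s_at (0.0249) and 202054_s_at (0.0473) by trend and robust, for 202053_s_at by the filter at log2 7 (0.0456) and for ALDH3A2 by the mean per gene (0.0102). Other calls changed as given in the report or by the stricter adjusted p. Against 12967 probe sets (6 members) with FAM60A, 11697 (14) with SDS3 and 8150 (11) for the difference, 1 probe set per gene gave 6855 (3), 6439 (6) and 4716 (6). The mean of a gene's probe sets gave 6546, 6079 (6) and 4335 (6), and leaving out shared-sequence probe sets 7876 (2), 7119 (5) and 4876 (5); these settings test fewer features. An adjusted p under 0.01 gave 8287 (3), 7118 and 4292, a 1.5-fold minimum 2743 (0), 2621 (5) and 2239 (3), and a 2-fold minimum 636 (0), 664 (1) and 432 (1). Spike-in scaling moved the median of all probe sets by -0.10, -0.32 and -0.22 (log2) and gave 6566 (3; 2602 higher and 3964 lower), 21819 (950 and 20869) and 4688 (295 and 4393), against 7127 and 5840, 5334 and 6363, and 3035 and 5115. Hybridization control scaling gave 7442 higher and 3072 lower with FAM60A (1 member), 2963 and 7769 with SDS3, and 814 and 6905 for the difference, whose median it moved by -0.14. Leaving out 1 array gave 10244 to 11872 (3 to 5), 8928 to 10785 (13 to 14) and 6516 to 8471 (9 to 12).

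With the replicate number as a block, 11062 (4), 10298 (13) and 6310 (11) passed; AKR1C3 (adjusted p = 0.104) and ALDH3A2 210544_s_at (0.0546) lost the call with FAM60A and AKR1C1 1555856_s_at (0.0671) with SDS3, and no other member call changed.

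Reversed values were all of changes that had not passed. With FAM60A, spike-in scaling gave -0.018 for AKR1C1 1555855_at, -0.076 for ALDH1A1, -0.0080 for ALDH1A3 1558649_at and -0.070 for ALDH3A1. Hybridization scaling gave 0.0011 for AKR1B10 and 0.017 for AKR1C1 217626_at. Leaving out 1 array gave 217626_at -0.18 to 0.056, ALDH3A1 -0.036 to 0.098 and the shared AKR1C2 and AKR1C1 probe set -0.023 to 0.18. With SDS3, spike-in scaling gave -0.26 for ALDH1A1, -0.23 for ALDH1A3 1558649_at and -0.14 for ALDH1A3 203180_at, hybridization scaling -0.014 for ALDH1A1, and leaving out 1 array -0.062 to 0.30 for 1558649_at. For the difference, ALDH1A1 had -0.18 (spike-in) and -0.099 (hybridization). ALDH1A3 1558649_at had 0.0000 (arrays centred), -0.038 (quantile), -0.22 (spike-in), -0.13 (hybridization), -0.0023 (array weights) and, without 1 array, -0.15 to 0.21. The causes were not tested. The number of arrays limits precision.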
